A study of Mus musculus with 2 samples.

Results

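Cxcl5+ activated FAPs are the cells of dystrophic mouse muscle that carry the stromal markers of fibro/adipogenic progenitors (FAPs) together with the neutrophil-attracting chemokine Cxcl5. A cell had to show at least 500 genes, 1 UMI (unique molecular identifier, a counted RNA molecule) of Pdgfra and 5 of Dcn, 0 UMIs of the leukocyte and endothelial genes Ptprc, Cdh5 and Pecam1, and at most 1 UMI of the tenocyte genes Tnmd, Kera and Chad together. Cells with 3 or more of 6 cell cycle genes and cells with at least 5 Pi16 and 1 Dpp4 UMIs were set apart. Of the FAPs left, those with at least 3 Cxcl5 UMIs and at least 2 of the 6 co-markers Il1rl1, Inhba, Tnc, Lif, Rdh10 and Adam12 were kept. The rule took 167 cells out of 1694 FAPs, 67 in Ctrl and 100 in dKO.

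Single cell RNA-seq (10x Chromium) was run on live, propidium iodide-negative mononuclear cells sorted from hind limb muscle after red cell lysis, in 2 libraries of 4527 and 3483 cell barcodes. Ctrl mice were Pax7CreERT2/R26YFP; Yy1+/+; mdx and dKO mice were Pax7CreERT2/R26YFP; Yy1 f/f; mdx, all given tamoxifen. Both groups therefore lack dystrophin and carry the Pax7-driven Cre, which is active in muscle stem cells (MuSCs), so that Yy1 deletion was aimed at MuSCs and not at the FAPs described here. Yy1 was at 99.8 CPM in the Cxcl5+ cells of Ctrl and 127 CPM in those of dKO (CPM are UMIs of a gene per 1000000 UMIs of the cell group), which says nothing of the deletion in MuSCs. Each library pools cells of several mice, with 1 library per genotype, so genotype, library and animals cannot be told apart, and no test between libraries is possible. All intervals are at 95% and cover counting error only. They are exact counting intervals, except for a difference of shares, which has a Newcombe interval. A gene is called higher or lower where its ratio passes 1.5-fold.

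FAPs are the Pdgfra-positive connective tissue cells of skeletal muscle. After injury they enter an activated state in which they release chemokines, cytokines and matrix proteins that act on leukocytes and on MuSCs, and they return to a resting state as repair ends. Cxcl5 belongs to the ELR-type CXC chemokines, with Cxcl1, Cxcl2 and Cxcl3, which attract neutrophils through the receptor Cxcr2. Il1rl1 encodes ST2, the receptor of the alarmin interleukin-33, Inhba the activin A subunit, and Lif a cytokine of the interleukin-6 family.

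The genes of Cxcl1, Cxcl2, Cxcl3 and Cxcl5 lie on chromosome 5 of the mouse (GRCm38), within the interval from 90759360, the start of Cxcl5, to 90905938, the end of Cxcl2. Promoter windows of RefSeq (GRCm38.p6, from 250 bases before to 50 after the start of the gene) were matched for 9 of 14 looked-up genes. Those of Cxcl1, Cxcl2 and Cxcl3 are shown because these chemokines are compared one by one in the results. The longest run of letters that their windows share before the start is GGGAATTTCCC, 11 bases that resemble the known binding consensus of the transcription factor NF-kB, and it is set in capitals. Each stretch is on the plus strand, at chr5:90891164-90891193 for Cxcl1, chr5:90903792-90903821 for Cxcl2 and chr5:90786018-90786047 for Cxcl3.
Cxcl1: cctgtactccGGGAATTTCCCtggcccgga
Cxcl2: cctgagctcaGGGAATTTCCCtggtccccg
Cxcl3: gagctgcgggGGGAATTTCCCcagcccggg
The letters began 71, 97 and 73 bases before the RefSeq start of Cxcl1, Cxcl2 and Cxcl3. The gene positions used for the interval on chromosome 5 are those of GENCODE, whose starts of these genes differ. Searched on both strands, they stood in 14 of 32851 windows, or 0.0426%. The letters were chosen from these 3 genes, so their presence there is a description and no sign of binding. The windows of Il1rl1, Inhba, Tnc, Lif, Timp1 and Il33 do not hold these letters, and Cxcl5, Ccl2, Ccl7, Rdh10 and Adam12 were not matched.

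The label was checked against markers, of which Pdgfra and Dcn had to be present by the rule. All 8 FAP markers were present in the cells of both libraries, and their summed level was 23119 CPM in Ctrl and 24714 CPM in dKO, below the 45129 and 42509 CPM of other FAPs. Dcn, Lum, Cd34 and Gsn were lower than in other FAPs by 1.5-fold or more in both libraries, whereas Pdgfra was at 359.9 and 313 CPM against 391 and 360.4 CPM. Timp1, the metalloproteinase inhibitor listed among the markers but not used by the rule, stood at 1575 CPM in Ctrl and 3071 CPM in dKO, 1.78 and 2.09 times its level in other FAPs. Of the 4 genes Cxcl5, Cxcl3, Ccl7 and Ccl2, the panel that names activated FAPs in the study, 3 were higher than in other FAPs in both libraries. Cxcl5 is one of the 3 and had to be higher by the rule, and the study chose the panel on these libraries, so it is not independent evidence.

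RNA of other cell types was low but not equal in the libraries. All 10 macrophage markers were present in the cells of both libraries, and their sum was 260 CPM in Ctrl and 88.4 CPM in dKO, against 82.9 and 62.2 CPM in other FAPs. Neutrophil markers summed to 45.9 and 7.51 CPM, and to 31.0 and 6.37 CPM in other FAPs, with Retnlg, Csf3r and Cxcr2 at 0 in dKO. The 9 myogenic markers summed to 27.3 and 19.2 CPM, below the 86.1 and 33.6 CPM of other FAPs, with the defining Pax7 and Myod1 at 0 UMIs. The 7 markers of smooth muscle and pericytes summed to 102 and 123 CPM, against 99.9 and 80.5 CPM in other FAPs. Lymphocyte markers had 3 UMIs in Ctrl and 1 in dKO, with Cd3d, Cd79b and Ms4a1 at 0, and the 5 erythroid genes were at 0. The part of this RNA in the results was not tested, except where a value without such cells is given. A UMI of any of 12 markers of other cell types was seen in 46 of 67 Ctrl and 42 of 100 dKO cells. After thinning each cell to 4000 UMIs these shares were 27.3% and 16.3%, beside 24.6% and 9.62% of other FAPs.

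The cells were deep. Their median was 22219 UMIs in Ctrl and 24810 in dKO, against 11242.5 and 11648 in other FAPs, and the rule, which asks for several UMIs of several genes, favours deep cells. At 4000 UMIs the median number of genes was 1638.5 and 1599.5, against 1621 and 1573 in other FAPs. No barcode of these cells occurred in both libraries, although the libraries shared 7 barcodes in all. In Ctrl 29 of the 67 cells, and in dKO 56 of the 100, lay among the 7.5% of cells of their library with most UMIs, where doublets would be found. The summed ratios of several lists move without them, as given with the processing alternatives.

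The first question was how large a share of FAPs the Cxcl5+ cells made up. They were 8.21% of 816 FAPs in Ctrl (6.42 to 10.3) and 11.4% of 878 FAPs in dKO (9.36 to 13.7), a difference of 3.18 percentage points (0.334 to 6.01). Of all cells with at least 500 genes they were 67 of the 4335 Ctrl and 100 of the 3329 dKO cells. Alternatives moved this difference. With each FAP thinned to 4000 UMIs before the Cxcl5 and co-marker steps, 39 of 748 Ctrl FAPs (5.21%) and 52 of 807 dKO FAPs (6.44%) met the rule, a difference of 1.23 points (-1.14 to 3.58). Leaving out the cells of most UMIs gave 5.29% in Ctrl and 5.87% in dKO, 0.582 points apart (-1.81 to 2.96). Among FAPs of at least 10000 UMIs the shares reached 12.2% and 15.5%, 3.29 points apart (-0.849 to 7.34). Under these 3 alternatives the interval includes 0, and the part of depth in the difference was not tested.

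Cxcl5 was spread unevenly within the group. In Ctrl the cells held from 4 to 390 Cxcl5 UMIs with a median of 41, and in dKO from 3 to 314 with a median of 34, so the ranges overlapped nearly throughout. All 6 co-markers were detected in 7 Ctrl and 20 dKO cells, and exactly 2 in 12 and 17. Just inside the threshold, 3 Ctrl and 13 dKO cells had 3 to 5 Cxcl5 UMIs. Just outside it, 7 Ctrl and 6 dKO FAPs had 2 Cxcl5 UMIs with at least 2 co-markers, and 14 Ctrl and 18 dKO FAPs had 3 or more Cxcl5 UMIs with fewer co-markers. Those last cells were shallower, at medians of 9762.5 and 11873 UMIs. Among FAPs without any Cxcl5 UMI, 203 in Ctrl and 173 in dKO carried at least 2 of the co-markers, so the co-markers were not particular to Cxcl5+ cells.

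Co-markers overlapped in part. At 4000 UMIs, Il1rl1 was seen in 37.9% of the Ctrl and 44.9% of the dKO cells (3.87% and 6.36% of other FAPs), and Inhba in 34.8% and 51.0% (12.3% and 14.9%). Both were seen together in 16.7% of Ctrl and 29.6% of dKO cells, a share that the rule raises by asking for at least 2 co-markers. Before thinning Il1rl1 was found in 52.2% and 62.0% of the cells, and in endothelial cells, which serve as background, in 0.585% and 0.490% at median depths of 5523 and 5061 UMIs.

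Most of the Cxcl5 RNA of each library lay in these few cells. In Ctrl, 67 of 4335 cells held 60.0% of the 6976 Cxcl5 UMIs, and in dKO 100 of 3329 cells held 63.0% of 10460. The level was 2787 CPM (2703 to 2872) in Ctrl and 2750.0 CPM in dKO, against 21.1 and 43.1 CPM in other FAPs. Next came cycling stromal cells at 811 and 704 CPM, while immune cells stood at 21.1 and 56.7 CPM and endothelial cells at 4.02 and 95.9 CPM. Since the rule used Cxcl5, this is a description. Pi16+ Dpp4+ FAPs, which the rule sets apart, had 44.0 CPM in Ctrl and 521 CPM in dKO, and 1 of 95 and 12 of 131 of them (1.05% and 9.16%) would have met the Cxcl5 and co-marker steps.

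**Figure D1:**
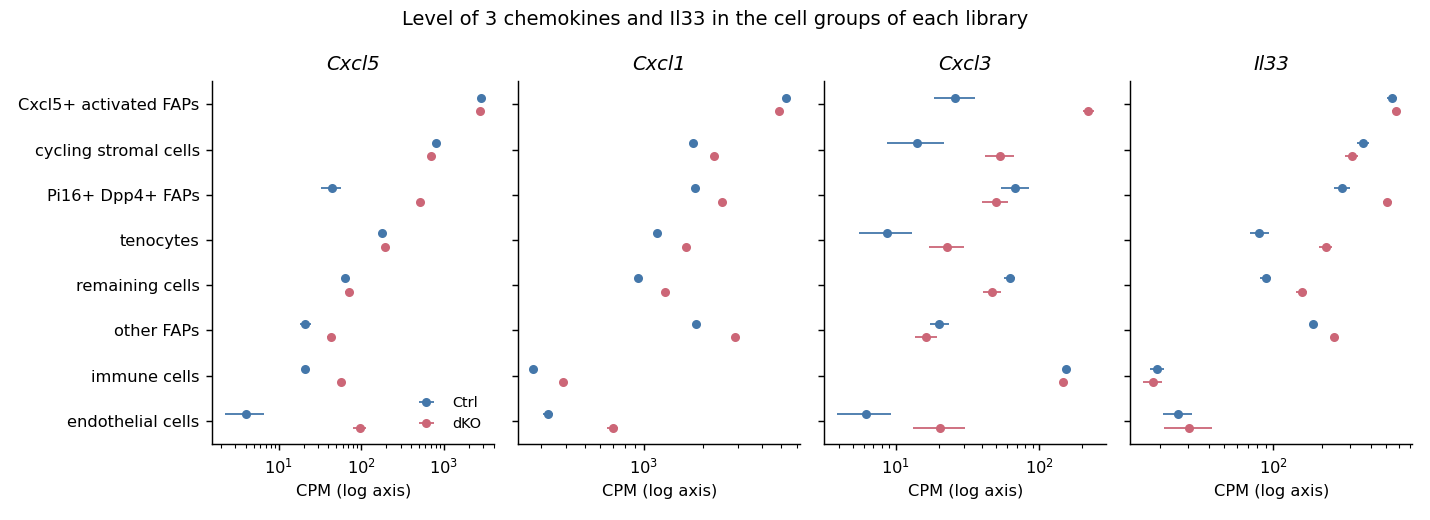
Level of Cxcl5, Cxcl1, Cxcl3 and Il33 (CPM on a log axis) in 8 cell groups of the Ctrl (blue) and dKO (red) libraries, where points are summed levels and bars 95% exact counting intervals. Cxcl5 was at 2787 CPM in Cxcl5+ activated FAPs of Ctrl and 21.1 CPM in other FAPs, whereas Cxcl3 differed between libraries in the Cxcl5+ cells, at 25.9 and 221 CPM.

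Il33, the ligand of the Il1rl1 receptor, was not part of the rule. It stood at 539 CPM in Ctrl and 572 CPM in dKO, 3.05 and 2.40 times the 177 and 239 CPM of other FAPs. Pi16+ Dpp4+ FAPs carried Il33 as well, at 267 and 506 CPM, so that in dKO their level was near that of the Cxcl5+ cells. At 4000 UMIs an Il33 UMI was found in 53.0% and 55.1% of the cells (71.6% and 78.0% unthinned) and in 27.4% and 32.5% of other FAPs. Endothelial cells carried one in 3.47% and 3.36%. The Cxcl5+ cells held 18.0% of all Il33 UMIs of the Ctrl library and 22.5% of those of dKO.

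What else set the Cxcl5+ cells apart from other FAPs was described gene by gene, with the 2 libraries kept apart. Because the cells were chosen by expression, this is a description of the cells and no test. Of 4896 genes with at least 500 UMIs over both groups, 368 (7.52%) were higher by 1.5-fold or more in both libraries and 402 (8.21%) were lower. The median ratio over all genes was 1.01 in Ctrl and 1.03 in dKO. Among the 15 genes highest in both libraries, Cxcl5, Lif, Il1rl1, Inhba and Rdh10 belong to the rule. The others fall into chemokines (Ccl2, Cxcl2), growth and amino acid metabolism (Odc1, Mthfd2, Asns, Ccnd1), the regulator of clotting Thbd and the genes Mfhas1 and Enc1, among others.

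**Figure D2:**
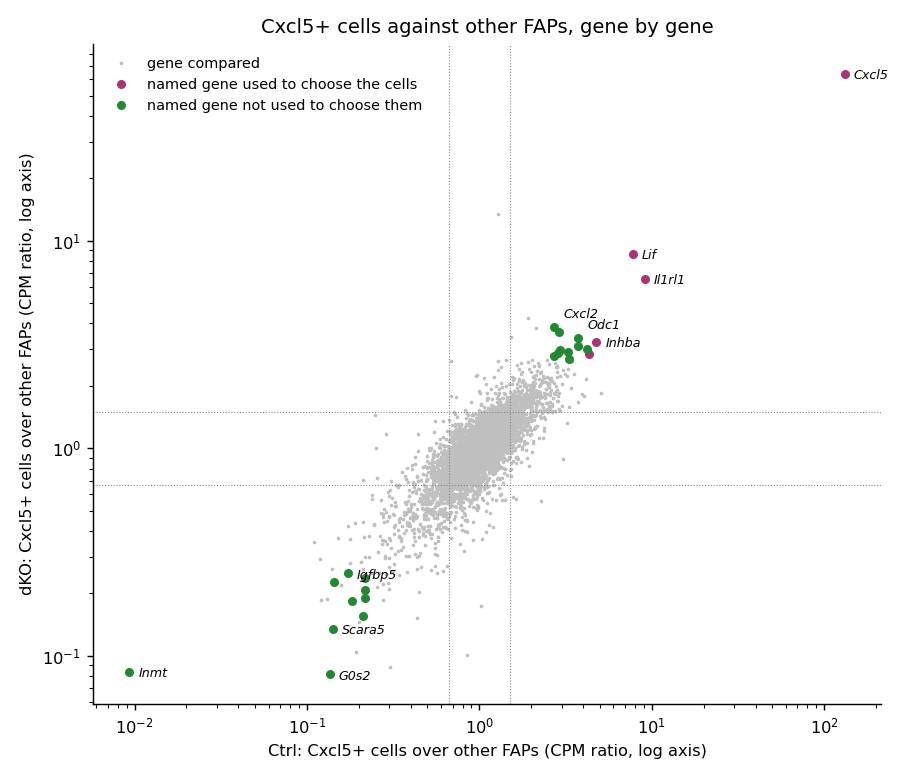
Each point is 1 of 4896 genes, placed by its CPM ratio of Cxcl5+ activated FAPs over other FAPs in Ctrl (horizontal, log axis) and in dKO (vertical, log axis), with dotted lines at 1.5-fold in either direction. Cxcl5, Lif, Il1rl1 and Inhba, which the rule used, are at the upper right, while Inmt, at 0.00931 and 0.0836, is at the lower left.

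Several chemokines were among the genes that the rule did not use. Ccl2, which recruits Ccr2-positive monocytes, stood at 3770 CPM in Ctrl and 3388 CPM in dKO, 4.22 and 3.02 times its level in other FAPs. Its neighbour Ccl7 was at 2540 and 2411 CPM, 2.66 and 1.76 times as high. Most of the cells carried them, with Ccl2 at 0 in 5 of 67 Ctrl and 12 of 100 dKO cells and Ccl7 at 0 in 5 and 3. Among neutrophil-attracting chemokines, Cxcl1 was at 5276 and 4897 CPM, 2.85 and 1.69 times its level in other FAPs, and Cxcl2 at 975 and 1632 CPM, 2.71 and 3.83 times. Cxcl15 was at 0 UMIs. Of the 10 CC chemokines on the list 5 were abundant enough to compare, and Ccl2 and Ccl7 passed 1.5-fold in both libraries while Ccl8, Ccl11 and Ccl19 did not. Other CXC chemokines, such as Cxcl12 and Cxcl14, gave 0 of 5 genes past 1.5-fold in both libraries. Il6 was at 346 and 328 CPM, 2.65 and 1.64 times as high as in other FAPs.

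Genes that NF-kB induces, some of which restrain it again, were high in part. Of 17 such genes 8 were higher in both libraries and 0 were lower, with a median ratio of 1.97 in Ctrl and 1.49 in dKO. Tnfaip3, which encodes the ubiquitin-editing inhibitor A20, was at 129 and 158 CPM, 1.84 and 1.81 times its level in other FAPs. Nfkb1 gave 1.97 and 1.92 times, and Sod2, the mitochondrial superoxide dismutase, 3.95 and 1.84 times. Nfkbia, the inhibitor of NF-kB, gave 2.04 and 1.46 times and so passed in Ctrl alone.

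Growth and biosynthesis genes formed the most uniform group. Of 12 genes of MYC and ribosome biogenesis, 11 were higher in both libraries, with a median ratio of 2.37 and 1.94. Ncl (nucleolin) was at 959 and 899 CPM, 3.15 and 2.29 times its level in other FAPs, and Npm1 (nucleophosmin) at 1940.5 and 1920.2 CPM, 2.34 and 2.08 times. Odc1, the rate-limiting enzyme of polyamine synthesis, was at 267 and 256 CPM, 3.74 and 3.39 times. Myc itself, at 183 and 129 CPM, was 1.65 times as high in Ctrl and 0.914 times in dKO, the gene of the list that did not pass in both. Ribosome biogenesis is known to precede cell growth, but cells with 3 or more of the 6 cycle genes had been removed. The cell cycle gene Ccnd1, which encodes cyclin D1, stood at 124 and 110.5 CPM, 3.27 and 2.91 times as high as in other FAPs. The Cxcl5+ cells were also deeper, at medians of 22219 and 24810 UMIs against 11242.5 and 11648 in other FAPs. The part of depth in these ratios was not tested.

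Metabolic genes were higher in part. Of the serine synthesis and ATF4 target genes abundant enough to compare, 3 of 8 were higher, among them the mitochondrial folate enzyme Mthfd2 (101 and 85.9 CPM, 3.74 and 3.12 times) and Phgdh, the first enzyme of serine synthesis (2.52 and 2.04 times). Asns, the asparagine synthetase, with 92 and 164 UMIs, gave 2.93 and 2.98 times. In glycolysis and hypoxia 7 of 15 genes were higher and 0 lower, such as Pgk1 (2.08 and 2.24 times), Ldha (1.72 and 1.997) and the glucose transporter Slc2a1 (3.44 and 2.64). Of 9 genes of sterol synthesis and its regulators, a list added after values had been seen, 7 were higher, for example Cyp51 (2.74 and 2.59 times) and Fdps (2.60 and 2.83).

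Matrix genes were mixed. None of 18 genes of fibrillar collagens and their cross-linking was higher in both libraries and 1 was lower, counts near the 7.52% and 8.21% of all genes. Col3a1 was at 9250.0 and 9108 CPM, 0.561 and 0.735 times its level in other FAPs, and Col1a1 at 4829.5 and 4490 CPM, 0.659 and 0.886 times. Of 16 genes of the provisional matrix, the hyaluronan- and tenascin-rich matrix of early wounds, 5 were higher and 1, Ccn1, was lower. As a group they were not higher, with medians of 1.05 and 1.23 and sums of 19674 and 20818 CPM against 22922 and 20549 CPM in other FAPs. Tnc, one of the 5, belongs to the rule. The others were Ptx3 (3.72 and 1.68 times) and Tnfaip6 (2.95 and 1.51 times), whose proteins stabilise hyaluronan, the hyaluronan synthase Has2 (1.84 and 2.06 times) and its receptor Cd44 (2.70 and 1.85 times). Thbd, the thrombin receptor thrombomodulin, was at 108 and 193 CPM (2.88 and 3.63 times). Pi16+ Dpp4+ FAPs, which are not among the other FAPs, had more Thbd, at 207 and 229.7 CPM, and like levels of Has2, at 67.6 and 106 CPM against 63.2 and 108 CPM. Plaur, the urokinase receptor, was 3.24 and 2.11 times as high, from 58 and 81 UMIs. Adamts4, a protease of aggrecan and versican, was 2.88 and 1.56 times as high.

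The genes of resting FAPs were low. Of 16 genes of resting parenchymal FAPs 13 were lower and 0 higher in both libraries, with a median ratio of 0.290 and 0.366. The list was chosen with earlier results of these data known, so this count is a description. Inmt, an indole methyltransferase, had 1 UMI in Ctrl and 16 in dKO in these cells, against 71.5 and 79.8 CPM in other FAPs. G0s2, an inhibitor of lipolysis, was at 9.31 and 7.09 CPM against 68.9 and 86.7. The ferritin receptor Scara5 was at 0.142 and 0.135 times, and Cpxm2 at 0.212 and 0.157 times. Mgp, the matrix Gla protein, was at 1063 and 824 CPM against 4448 and 3280 CPM. Spon1, Htra3, Myoc, Abca8b and Igfbp5 were also among the 10 lowest genes, at 0.144 to 0.251 times their level in other FAPs. Complement genes, which FAPs are known to express widely, followed, with 8 of 10 lower in both libraries, a median of 0.408 and 0.417, and Serping1 at 642 and 980 CPM against 1562 and 2165 CPM. Il11 was high in ratio, but single cells held 58.3% of its Ctrl and 50.8% of its dKO UMIs.

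The same contrast can be laid out along the Cxcl5 count, which restates it, since the highest class is made up of 13 of 13 and 18 of 19 Cxcl5+ cells of the rule and the class at 0 holds 3 of 575 and 10 of 565. FAPs outside the Pi16+ Dpp4+ group were thinned to 4000 UMIs and ordered by Cxcl5 count, which includes cells that the rule left out. Mean Ccl2 per cell was 2.76 UMIs at 0 Cxcl5 UMIs and 20.7 at 21 or more in Ctrl, and 3.76 and 23.2 in dKO. Ncl went from 1.14 to 6.69 and from 1.47 to 6.16 UMIs. Ccl7 and Timp1 did not follow it throughout, with Ccl7 in dKO at 4.89 UMIs at 0 Cxcl5 UMIs, 10.4 at 1 and 8.16 at 21 or more, and Timp1 in Ctrl at 2.51, 8.25 and 6.92. Col3a1 went the other way, from 63.2 to 12.8 in Ctrl and from 47.2 to 19.5 in dKO, and Mgp from 20.2 to 1.08 and from 14.5 to 1.53. The highest class holds 13 Ctrl and 19 dKO cells, fewer than 20 in each, and the class of 1 UMI holds 16 and 25. In the next class, of 6 to 20 Cxcl5 UMIs, with 26 and 40 cells, Ncl was at 3.69 and 3.25, and Col3a1 at 36.7 and 40.5 UMIs.

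**Figure D3:**
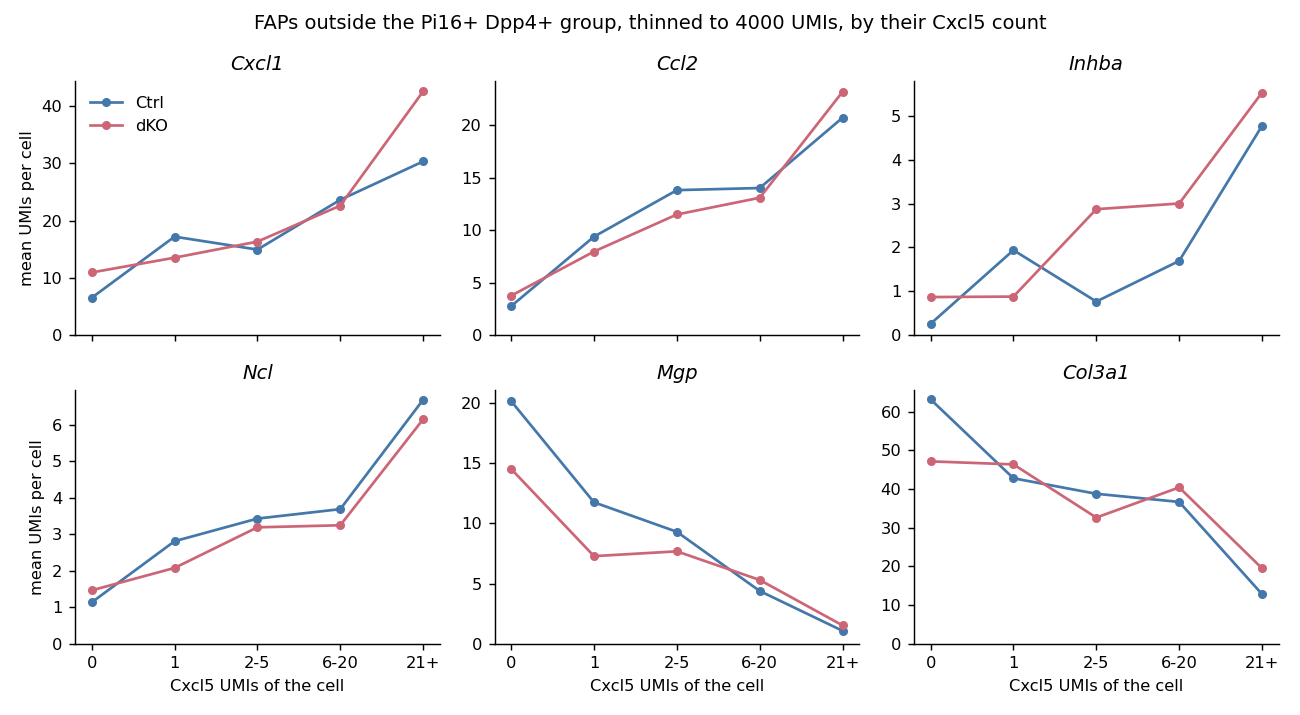
Mean UMIs per cell of 6 genes (vertical) in FAPs thinned to 4000 UMIs and classed by their Cxcl5 UMIs (horizontal), Ctrl in blue and dKO in red. Cxcl1, Ccl2, Inhba and Ncl are highest and Mgp and Col3a1 lowest in the class of 21 or more, which holds 13 Ctrl and 19 dKO cells.

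Across the same FAPs together with Pi16+ Dpp4+ cells (748 in Ctrl and 807 in dKO), the gene most like Cxcl5 by Spearman correlation was Ccl2, at 0.411 and 0.349 among 4265 genes. It was followed by Npm1, Timp1, Rpl41, Rpsa, Ccl7, Rdh10, Ran, Rps2 and Rplp1, the lower of whose values was between 0.275 and 0.305. The most unlike were Dcn (-0.353 and -0.353), Timp2, Itm2b, Rnase4 and Serping1. Cells of 1 library share its depth and background, so these values describe the 2 libraries and carry no p.

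The design asks how the cells of dKO muscle differ from those of Ctrl muscle. Cxcl5, by which the cells of both libraries were chosen, had a ratio dKO over Ctrl of 0.987 (0.949 to 1.03), which is a description. Outside the rule, Ccl2 gave 0.899 (0.869 to 0.930) and Ccl7 0.949 (0.911 to 0.989). Of 4665 genes with at least 100 UMIs in the Cxcl5+ cells, 164 (3.52%) were higher in dKO by 1.5-fold or more and 166 (3.56%) were lower. The minimum is over both libraries together, so a gene low in one can pass through the other, and counts over lists describe the genes that passed. In other FAPs 151 of the same genes (3.24%) were higher and 56 (1.2%) lower. Of the 164 higher genes 65 were higher in other FAPs too, and of the 166 lower ones 12 were lower there. The median log2 ratio over all genes was -0.02 in the Cxcl5+ cells and -0.04 in other FAPs.

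**Figure D4:**
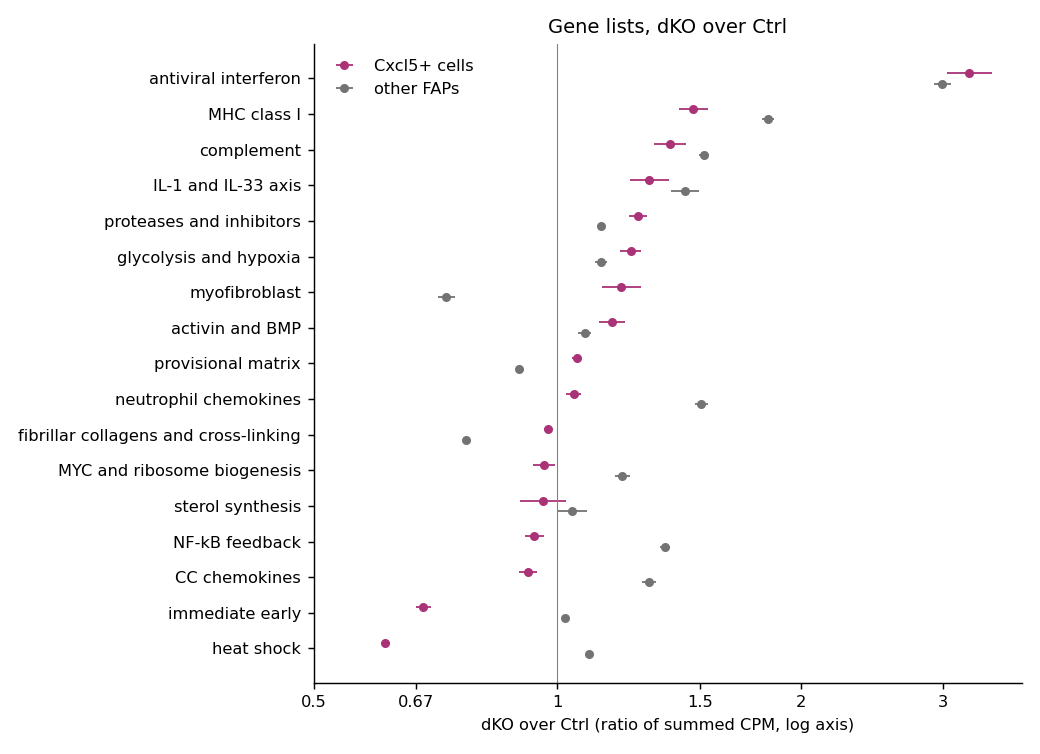
Ratio dKO over Ctrl of the summed level of 17 gene lists (log axis) in Cxcl5+ activated FAPs (purple) and in other FAPs (grey), with bars for 95% counting intervals. The antiviral list is at 3.23 and 2.99, whereas heat shock genes are at 0.613 in the Cxcl5+ cells and 1.09 in other FAPs.

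Antiviral interferon-induced genes were higher in dKO as a sum. The list of 20 genes, which takes in those under the minimum, stood at 758 CPM in Ctrl and 2448 CPM in dKO, a ratio of 3.23 (3.03 to 3.44), and other FAPs gave 2.99 and Pi16+ Dpp4+ FAPs 1.79. Of the 12 genes over the minimum, some of which passed it through dKO, 11 were higher, and Ifit1 was not (1.39, 0.971 to 2.03). Among the 8 genes under it, Ifit2 and Mx2 were at 16 and 22 and at 25 and 22 UMIs, with ratios of 0.862 and 0.552. A list of interferon-gamma targets was at 432 and 559 CPM, a ratio of 1.29 against 1.80 in other FAPs, with 3 of 5 genes higher and Irf1 lower (0.650). Cell by cell, the quartiles of the antiviral list were 234 and 754 CPM in Ctrl and 866 and 3242 CPM in dKO. The interquartile ranges of this list did not overlap, although the full ranges did. Ifi27l2a was at 202 and 893 CPM, a ratio of 4.43 (3.92 to 5.01), and Irf7, the transcription factor that amplifies the interferon response, at 25.3 and 102 CPM (4.04). Isg15, a ubiquitin-like modifier, went from 68.5 to 268 CPM (3.91), and Ifi44, Rtp4 and, outside the list, Zbp1, a sensor of Z-form nucleic acids, gave 5.47, 3.60 and 4.20 from 15, 23 and 27 UMIs in Ctrl. The Cxcr3 ligand Cxcl9 gave 3.56, but 1 cell held 55.4% of its Ctrl UMIs. Without the cells that carry any of the 12 markers of other cell types, the log2 ratio of the antiviral list was 2.67 in place of 1.69. That left out 46 of 67 Ctrl and 42 of 100 dKO cells, and the part of depth was not tested.

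MHC class I genes followed, with 6 of 10 higher in dKO and 8 of 10 in other FAPs. H2-K1 stood at 495 CPM in Ctrl and 827 in dKO (1.67, 1.53 to 1.82), and the immunoproteasome subunit Psmb8 from 61.9 to 107 CPM (1.73). Complement genes were higher in 5 of 8, among them Cfb (154 and 272 CPM, 1.76) and Serping1 (642 and 980 CPM, 1.53). The ratios of the summed lists were 1.47 and 1.38 in the Cxcl5+ cells, 1.82 and 1.52 in other FAPs, and 1.54 and 0.995 (0.971 to 1.02) in Pi16+ Dpp4+ FAPs.

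The CXC chemokines parted from each other. Cxcl3 had 39 UMIs in Ctrl and 529 in dKO, or 25.9 and 221 CPM, a ratio of 8.50 (6.14 to 12.1) and the highest of all genes with at least 100 UMIs. In other FAPs it was 20.2 and 16.3 CPM, a ratio of 0.810 (0.642 to 1.02). Cxcl3 was at 0 in 59 of 67 Ctrl and 76 of 100 dKO cells, so it was confined to a minority in both libraries. At 4000 UMIs 6.06% and 17.3% of the cells had it, beside 14.1% and 13.4% of immune cells, where most Cxcl3 UMIs of each library lay, and 1.45% and 4.20% of endothelial cells. One cell held 30.8% of the Ctrl UMIs and another 17.4% of those in dKO. As the mean of each cell's own CPM the log2 ratio was 1.90 in place of 3.09, and without the cells of most UMIs 1.75. Cxcl2 went from 975 to 1632 CPM (1.67, 1.58 to 1.78), while Cxcl1 gave 0.928. The summed list of neutrophil chemokines was 9068 and 9502 CPM, a ratio of 1.05 in the Cxcl5+ cells, 1.51 in other FAPs and 1.77 in Pi16+ Dpp4+ FAPs. The sum holds Cxcl5, with 4189 of its 13631 UMIs in Ctrl and 6595 of 22787 in dKO, which the rule used, so these ratios are a description. Its log2 ratio of 0.07 in the Cxcl5+ cells became -0.15 without cells carrying other-type markers, 0.36 without the cells of most UMIs and 0.28 as a mean of cell CPM, so its direction was not stable.

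**Figure D5:**
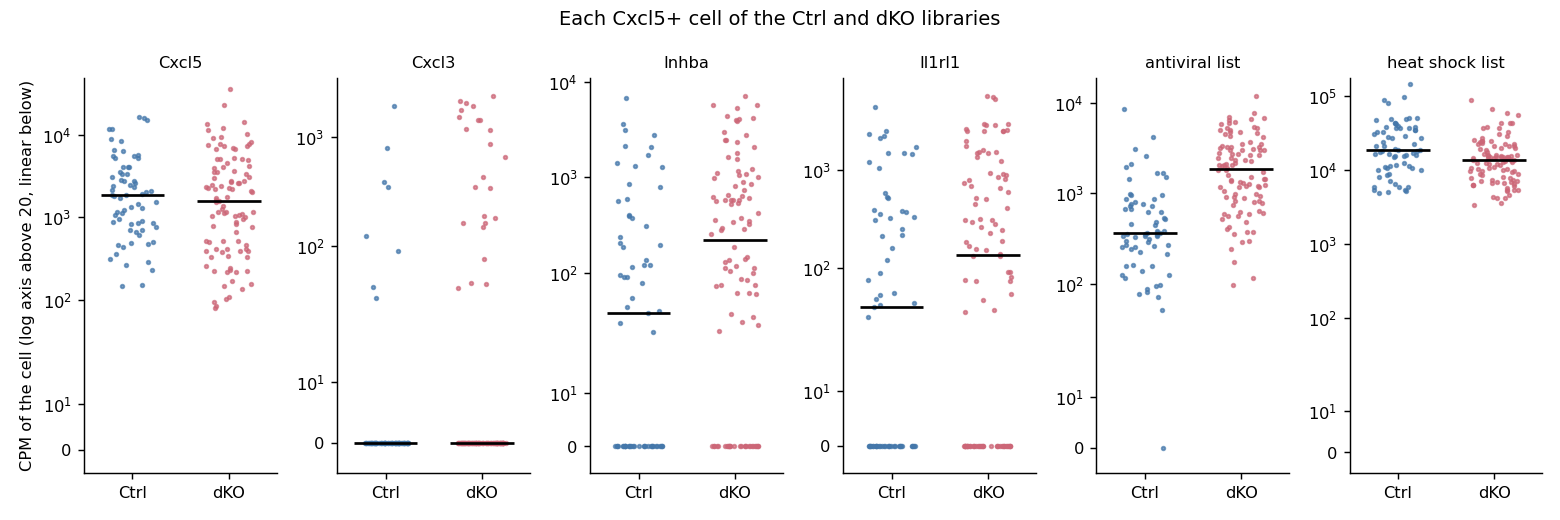
Each point is 1 Cxcl5+ activated FAP, 67 of Ctrl (blue) and 100 of dKO (red), with its level of 4 genes and 2 gene lists in CPM (log axis above 20, linear below) and the median as a black line. The dKO median is above that of Ctrl for Inhba, Il1rl1 and the antiviral list, below it for heat shock genes, and 0 in both for Cxcl3, and the points of the libraries overlap in every panel.

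The genes that the rule used are given as a description. Inhba was at 457 and 920 CPM, a ratio of 2.01 (1.85 to 2.20), with medians per cell of 38.5 and 223 CPM, and Il1rl1 at 355 and 632 CPM, 1.78 (1.61 to 1.97). Other FAPs gave 2.94 and 2.46 for these genes. Lif went from 89.8 to 139 CPM (1.55), Tnc from 469 to 680.5 CPM (1.45), and Rdh10 and Adam12 gave 1.09 and 0.848. In other FAPs Lif, Rdh10 and Adam12 gave 1.38, 1.66 and 0.749, while Tnc was lower in dKO, at 246 and 161 CPM (0.654). Il33, outside the rule, gave 1.06 (0.973 to 1.16), and the activin antagonist Fst, follistatin, 0.965 in the Cxcl5+ cells and 2.35 in other FAPs. Timp1 was 1.95 times as high (1.86 to 2.04) in the Cxcl5+ cells, at 1042 and 1509 CPM in the median cell. Its summed level was higher in dKO outside these cells too, at 886 and 1472 CPM in other FAPs. In Pi16+ Dpp4+ FAPs it was 473 and 1267 CPM, so the rise was not particular to the Cxcl5+ cells.

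Genes of adventitial FAPs, the FAPs around vessels and fascia, were higher in dKO in 5 of 8, and in other FAPs in 1 of 8. Summed, they were 1024 and 1594 CPM, a ratio of 1.56 (1.47 to 1.65) against 1.18 in other FAPs and 0.903 in Pi16+ Dpp4+ FAPs. The sum holds Pi16, with 54 of its 1540 UMIs in Ctrl and 307 of 3822 in dKO, so these ratios are a description. The 5 were Sema3c (1.75), Ly6c1 (1.81), the chemokine-scavenging receptor Ackr3 (1.66), Igfbp5 (1.57) and Pi16, at 35.9 and 128 CPM (3.56), which the rule used together with Dpp4 to set cells apart. Other genes higher in dKO were outside that list. Eln, which encodes elastin, was at 77.2 and 306 CPM, a ratio of 3.97 (3.26 to 4.87), with other FAPs at 701 and 864 CPM (1.23). As a mean of cell CPM it was 116 and 291, and it was at 0 in 35 of 67 Ctrl and 54 of 100 dKO cells. Lmcd1, a LIM domain protein, was at 18.6 and 71.7 CPM (3.85), with 27.9% of its dKO UMIs in 1 cell. In other FAPs Lmcd1 was higher in dKO too, at 2.12 (1.66 to 2.74), and in Pi16+ Dpp4+ FAPs it gave 0.478. Serpinb1a, an inhibitor of neutrophil proteases, was at 25.3 and 90.5 CPM (3.58), with 1.49 (1.28 to 1.73) in other FAPs and 1.35 in Pi16+ Dpp4+ FAPs. The cytokine Tslp gave 3.42, from 26 UMIs in Ctrl and 142 in dKO.

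Heat shock genes were lower in dKO. Of 19 genes of a list of chaperones and co-chaperones, added after values had been seen, 11 were lower and 0 higher, with a median log2 ratio of -0.73. Summed, they were 27562 CPM in Ctrl and 16903 CPM in dKO, a ratio of 0.613 (0.605 to 0.622), whereas other FAPs stood at 32380 and 35439 CPM. Pi16+ Dpp4+ FAPs were lower in dKO too, at 27356 and 21612 CPM (0.790, 0.779 to 0.802). Hspa1a, the inducible HSP70, went from 2635 to 1110.0 CPM (0.421), Hspb1 from 2636 to 1271 CPM (0.482), and the co-chaperone Dnaja4 from 283 to 106 CPM (0.375). The constitutive Hspa8 and Hsp90ab1 gave 0.789 and 0.816. Medians per cell of the list were 18389 and 13706 CPM, with interquartile ranges of 10675 to 36319 and 7849.8 to 20683 CPM that overlapped. Swt1, an endoribonuclease gene of no list, was at 112 and 43.4 CPM (0.386) and at 102 and 110 CPM in other FAPs.

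Immediate early genes, which respond within minutes to stimuli including tissue dissociation, were lower in part. Of 16 such genes 6 were lower and 0 higher, such as Ier2 (575 and 283 CPM, 0.492), Atf3 (454 and 236 CPM, 0.521, but 341 and 244 CPM as a mean of cell CPM, which does not pass 1.5-fold) and Jun (2105 and 1193 CPM, 0.567). Their sum gave 0.683 (0.6699 to 0.697) in the Cxcl5+ cells, which does not pass 1.5-fold. It gave 0.730 (0.715 to 0.745) in Pi16+ Dpp4+ FAPs and 1.02 in other FAPs, where 1 gene was higher and 0 lower. Without the cells of most UMIs the sum turned to a log2 ratio of 0.13. Arc, another immediate early gene, had 87 and 29 UMIs (0.209), and 1 cell held 83.9% of the Ctrl UMIs.

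The other genes lowest in dKO were a mixed set. Ctss (0.176), Fcer1g (0.271) and Cd74 (0.396) are known as leukocyte genes, and 36.6%, 40.7% and 56.6% of their Ctrl UMIs lay in 1 cell each. The macrophage marker sum was higher in Ctrl as well, at 260 against 88.4 CPM. Without cells carrying any of the 12 markers of other cell types the log2 ratios of Ctss and Fcer1g were -1.62 and -1.63, while that of Cd74 turned to 0.31. Without the cells of most UMIs Fcer1g turned to 1.51 and Ctss was at -0.51. Serpinb2 (0.420) had 96.2% of its 106 Ctrl UMIs in 1 cell, and without the top cell of each library its log2 ratio was 2.87. Cyb5r1, a cytochrome b5 reductase, went from 57.9 to 16.7 CPM (0.288), with other FAPs at 15.9 and 16.6 CPM. The imprinted gene Mest (0.302), Tcim (0.356) and the heparin-binding factor Ptn (0.370) were lower in other FAPs too, at 0.355, 0.532 and 0.511, but turned to 1.12, 1.59 and 0.38 on the log2 scale without cells carrying a marker of another type.

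For several lists no gene passed 1.5-fold between the libraries, where the background of 3.52% and 3.56% is small for lists of this size, so the counts are near the background. Fibrillar collagens gave 0 of 18 genes past 1.5-fold between the libraries in either direction, MYC and ribosome biogenesis 0 of 12, NF-kB feedback 0 of 17 and serine and ATF4 genes 0 of 12. The ratios of their summed levels were 0.973, 0.963, 0.937 and 0.915. On the log2 scale the collagens turned to 0.43 and NF-kB feedback to 0.18 without cells carrying other-type markers, and to 0.14 and 0.24 without the cells of most UMIs. In other FAPs the same lists gave 0.772, 1.20, 1.36 and 1.13. In glycolysis and hypoxia 2 of 16 genes were higher, the hexokinase Hk2 (172 and 279.8 CPM, 1.63) and Slc2a1 (52.6 and 90.9 CPM, 1.73). Of 11 genes of survival and death 1, Bak1, was higher at 32 and 77 UMIs (1.51, 0.987 to 2.36), an interval that includes 1. The TGF-beta list gave 1 of 15 higher, Tgfb2 (225 and 346 CPM, 1.54), and 1 lower, Ccn2 (416 and 261 CPM, 0.628).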

How the data were processed

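The 2 10x libraries, 1 per genotype, were analysed from the raw UMI count matrices that the authors deposited (45556596 UMIs in Ctrl and 33815155 in dKO). The submitters' processing notes name Cell Ranger 7.0.0, Seurat 4.3.0 and mm10, while the matrix headers give 3.0.2, and 0 mitochondrial genes are among the 24984 symbols, so no mitochondrial filter could be set. Barcodes with under 500 genes were dropped (192 and 154), which leaves the 4335 and 3329 cells that the study gives after doublet removal. No doublet caller was run, but the rule drops cells with Ptprc, Cdh5 or Pecam1, and an alternative leaves out the 7.5% of cells with most UMIs. UMIs were summed over cells of a group and given as CPM, with exact Poisson, Clopper-Pearson or conditional binomial intervals (95%) and a Newcombe interval for a difference of shares. Cells are not replicates, so no test was run. Thinning drew 4000 UMIs per cell without replacement, leaving out shallower cells (1 Ctrl and 2 dKO of the Cxcl5+ cells, 60 and 65 of other FAPs). Genes named are the 15 highest and 10 lowest of the Cxcl5+ cells against other FAPs (smaller ratio of the libraries, at least 50 CPM and 20% of cells), the 12 highest and 12 lowest dKO ratios whose interval leaves out 1, the 10 genes most like Cxcl5, and members of lists, of which a few are not reported here. Members and lists were chosen with earlier results of these data known. Trac is not in the files. Ratios, intervals and thinning were tested on simulated data. Python 3.11.15, numpy 2.4.6, scipy 1.17.1 and pandas 2.3.3 were used.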

Additional observations from a re-analysis of the deposited data

Results flagged for a closer look

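The ratio dKO over Ctrl of heat shock genes lay on opposite sides of 1 in Cxcl5+ activated FAPs, at 0.613, and in other FAPs, at 1.09 (1.089 to 1.10). Pi16+ Dpp4+ FAPs were on the same side as the Cxcl5+ cells, at 0.790 (0.779 to 0.802). With 1 library per genotype the difference between the groups was not tested.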

How the results depend on the processing

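No paired analysis was possible because each genotype has 1 library, and no library could be left out. The difference in share ran from 0.582 to 4.42 points under 10 alternatives, 2 of them chosen after seeing the data, and its interval included 0 at 5 Cxcl5 UMIs, at 1 co-marker, thinned, without the cells of most UMIs and at 10000 UMIs. The counts of genes past 1.5-fold were 164 higher and 166 lower. They became 314 and 403 at a minimum of 50 UMIs, and 94 and 65 at 200. With at least 1 UMI in each library they were 1250 and 2242. Without the cells of most UMIs, which left fewer cells, they were 468 and 509. The antiviral log2 ratio of 1.69 became 2.67 without cells carrying other-type markers, 1.99 without the cells of most UMIs and 1.88 without the top cell of each library. The heat shock log2 ratio of -0.71 became -0.65 as a mean of cell CPM, -0.68 scaled to the median gene ratio, -0.52 without other-type markers, -0.66 without the cells of most UMIs, -0.77 at 5 Cxcl5 UMIs and -0.67 without the top cell. Without other-type markers the neutrophil chemokine list turned to -0.15, NF-kB feedback to 0.18, fibrillar collagens to 0.43, Mest to 1.12, Tcim to 1.59, Ptn to 0.38 and Cd74 to 0.31. Without the cells of most UMIs NF-kB feedback turned to 0.24, immediate early to 0.13, fibrillar collagens to 0.14, Arc to 0.34, Fcer1g to 1.51 and Serpinb2 to 0.99. NF-kB feedback turned to 0.073 as a mean of cell CPM, fibrillar collagens to 0.027 at 5 Cxcl5 UMIs and Serpinb2 to 2.87 without its top cell. The cause was not tested. All 147 alternative values of genes named against other FAPs kept their direction. These came from the mean of cell CPM, thinning, and other FAPs without Cxcl5 UMIs as the reference. Leaving out Cxcl5+ cells was not tried for this contrast. The genes include Cxcl5, Lif, Il1rl1, Inhba and Rdh10, which the rule used, so their direction is a description.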
